A study of Mus musculus with 2 samples.

Results

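Cytosolic ribosomal protein genes encode the proteins that, with ribosomal RNA, build the small and large subunits of the ribosome outside mitochondria. They were taken here as all genes whose symbol begins with Rpl or Rps and a digit, or with Rplp and a digit, together with Rpsa. Symbols with the pseudogene mark -ps or with the letter k, which removes ribosomal S6 kinases, were left out. This gave 87 of the 32544 genes in the tables, all with GENCODE M39 coordinates. Of them, 77 encode structural proteins (46 of the large and 31 of the small subunit), and the other 10 are paralogs, retrogenes or genes that only share the name.

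They were measured by scRNA-Seq in bone marrow-derived monocytes (BMDMs) of mice, cultured toward osteoclasts (OCs) with M-CSF (50 ng/ml) plus RANKL (100 ng/ml) and collected a day after RANKL. The control library carries the genotype label CONTROL, without named alleles. The mutant library is LysM-Cre;Arid1afl/fl: Cre is expressed from the Lyz2 locus in myeloid cells and deletes floxed sequence of Arid1a, whose product belongs to the BAF complex that remodels chromatin. Both cultures received the same cytokines. Each genotype was 1 library, and the number of animals behind a library was not given. The methods for cultures with these cytokines give marrow from mice 4 to 6 weeks of age. There was thus no test between the groups, and every interval in parentheses is a 95% interval for counting error only.

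Transcripts of ribosomal protein genes are among the most abundant mRNAs of a growing cell. Most begin with a run of pyrimidines (C or T in the DNA), the 5′ terminal oligopyrimidine motif, through which the mTOR pathway and the RNA-binding protein LARP1 adjust their translation and stability together. Subunits are assembled in the nucleolus, and ribosomal proteins made in excess are degraded. Fusion of monocytic precursors and the secretion of proteases and acid by OCs both rest on protein synthesis.

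The start of 7 members that lie at the ends of the comparison below is shown, to let the run be seen where it exists. Each line holds the 15 bases before and the 15 bases after a start annotated by RefSeq (GRCm38.p6), 5′ to 3′ on the strand of the gene, with the longest unbroken run of C or T in capitals. Where a gene had several annotated starts, the one with the longest run was taken. The first 5 genes had the lowest ratios of mutant over control, and the last 2 were among the highest.
Rpl14, chr9:120571502-120571531, plus strand: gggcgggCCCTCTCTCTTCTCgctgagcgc
Rps2, chr17:24720048-24720077, plus strand: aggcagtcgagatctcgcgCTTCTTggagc
Rpl12, chr2:32961697-32961726, plus strand: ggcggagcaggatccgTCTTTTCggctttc
Rpl13a, chr7:45128731-45128760, minus strand: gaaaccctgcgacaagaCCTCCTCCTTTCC
Rplp0, chr5:115559452-115559481, plus strand: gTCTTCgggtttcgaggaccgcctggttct
Rpl39, chrX:37085208-37085237, minus strand: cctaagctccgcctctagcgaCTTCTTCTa
Rps27, chr3:90213634-90213663, minus strand: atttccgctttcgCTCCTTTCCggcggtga
A run of at least 6 pyrimidines on the gene's own strand was present in 35 of the 57 structural members with a RefSeq entry (61.4%), against 32.7% of 27025 genes read in the same way. It was seen at both ends of the list: Rpl14 and Rpl39 hold one, and Rplp0 does not. The median log2 ratio of mutant over control was -0.39 in the 35 members with such a run and -0.38 in the 22 with a shorter one. A match is a matter of letters in this window, and says nothing about whether the motif is used. Taking the start with the longest run can only raise the share of genes with a run, in members and in all genes.

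After leaving out barcodes with fewer than 500 genes or more than 10% mitochondrial UMIs (unique molecular identifiers, each marking 1 captured mRNA molecule), 6269 control and 5663 mutant cells remained. Their medians were 23978 and 21734 UMIs and 4360 and 4288 genes per cell. The mitochondrial share had a median of 2.04% in control and 1.27% in mutant cells. Among the barcodes kept, 7 occurred in both libraries. Arid1a itself had 51.9 CPM (counts per 1000000 UMIs) in control and 20.4 CPM in mutant cells, so that its log2 ratio was -1.35 (-1.41 to -1.28). Monocytic markers were present in both libraries, with all 8 of the macrophage list past 20 CPM, but their levels differed between the libraries. Of these 8, 7 were higher in mutant cells by at least 0.32 on the log2 scale (median over the list 0.85, highest Fcgr1 at 2.33), and Lyz2 was at -0.99. The mutant expresses Cre from the Lyz2 locus, and the control alleles are not named. An effect of that allele on Lyz2 cannot be told apart from one of cell state. Of 13 osteoclast markers 6 passed 20 CPM, with 5 lower by that size and a median of -1.06. Calcr was at 0 in both libraries and Oscar in the mutant one.

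Ribosomal protein genes took a smaller share of the mutant library. They held 35953127 of 163618835 control UMIs, or 22.0% (21.97 to 21.98%), and 21907712 of 131469887 mutant UMIs, or 16.7% (16.66 to 16.67%). The difference was -5.31 percentage points, and the mutant share was 0.758 of the control share. Per cell, the median share was 21.8% in the control library, between a 5th percentile of 14.4% and a 95th of 29.0%. Mutant cells had a median of 16.0%, between 9.61 and 23.9%. The distributions overlapped, but 89.1% of mutant cells lay below the control median, and 10.4% of control cells lay below the mutant median. Cells of 1 library are not replicates, so these percentages are descriptions. A mean of 5735 UMIs per control cell and 3869 per mutant cell fell on these genes. The values are shares of captured RNA, so less of these mRNAs and more of other mRNAs per cell cannot be told apart.

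The mutant share was the lower one in each of 4 ranges of depth. In cells of 5000 to 10000 UMIs it was 19.4% in control and 15.1% in mutant cells, and in cells of 30000 to 60000 UMIs it was 21.9% and 16.9%. Between 10000 and 20000 UMIs the shares were 21.8% and 16.7%, and between 20000 and 30000 UMIs they were 21.9% and 16.5%. The difference of mutant minus control thus ran from -5.47 to -4.34 points over the 4 ranges.

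Of the 87 members, 83 had a mean of at least 20 CPM over the libraries. In the mutant library 81 of the 83 were lower and 2 higher, and the counting interval lay on that side of 0 for each of them. The median log2 ratio of mutant over control was -0.40, against 0.022 over all 5219 genes past the same filter. With 1 library per group, a gene was called lower or higher where its log2 ratio was at least 0.32 from 0, and this size is the threshold used below. Of the members, 56 were lower past the threshold and 0 were higher. Among all genes 17.5% were lower and 24% higher past it. These background shares depend on the scaling. They come from 912 lower and 1253 higher genes, which became 1157 and 1055 under TMM scaling, 1250 and 962 under median-of-ratios scaling, and 1507 and 1087 when mitochondrial and ribosomal protein gene UMIs were left out of the totals. That last setting shifted the median of all genes from 0.022 to -0.081. The median of the members minus that of all genes was -0.42 with totals of all UMIs and -0.43 with these, where 70 of 83 members were lower past the threshold. A change of totals shifts every log2 ratio alike. That difference of medians can thus move only through which genes pass the filter, and it is no check of the scaling.

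**Figure D1:**
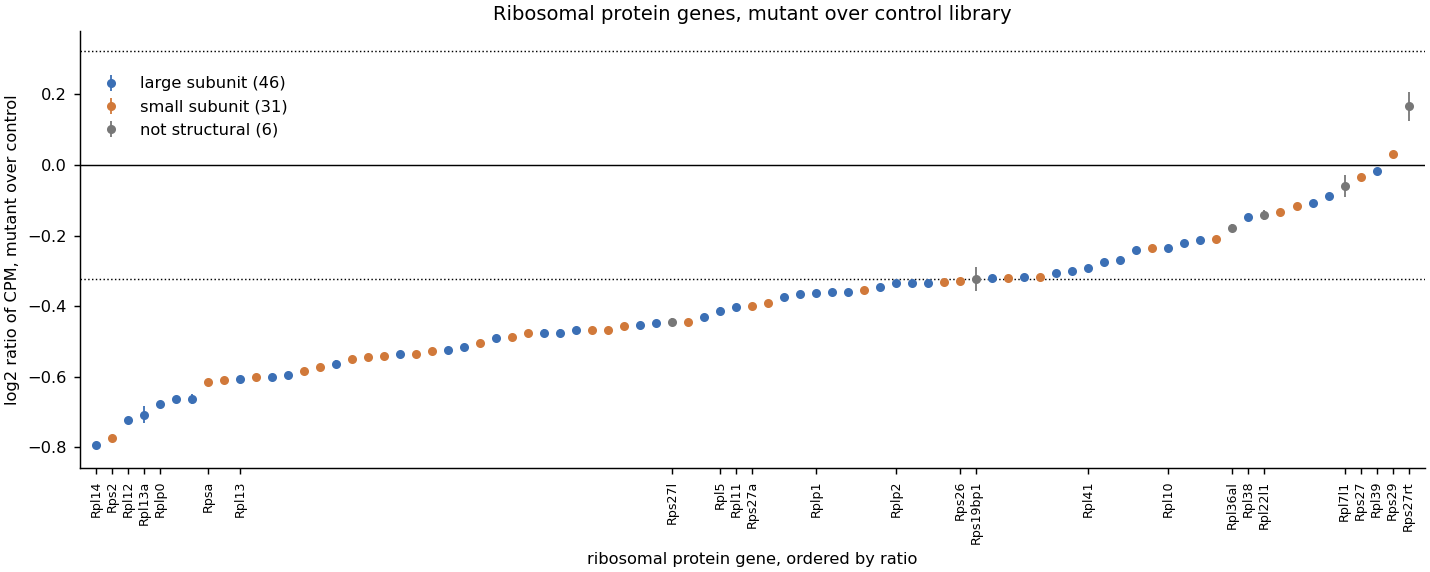
Log2 ratio of CPM, mutant over control library, for the 83 ribosomal protein genes past 20 CPM, ordered by ratio, with names at genes described in the text. Points are 1 gene each, bars are 95% counting intervals, and dotted lines mark the threshold of 0.32. The genes run from Rpl14 at -0.79 to Rps27rt at 0.17, and 81 of 83 lie below 0.

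Both subunits were lower. The 46 large-subunit genes had a median log2 ratio of -0.37, with 31 lower past the threshold, and the 31 small-subunit genes one of -0.47, with 23. Large-subunit genes went from 12 to 9.19% of UMIs and small-subunit genes from 9.67 to 7.24%. The number of small-subunit UMIs per large-subunit UMI was 0.805 in control and 0.788 in mutant cells. Across single cells of a library the shares of the subunits went together, with a Spearman rho of 0.976 in 6269 control cells and 0.967 in 5663 mutant cells. Both shares have the same total in their denominator, so these are descriptions.

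Within the large subunit, Rpl14 had the lowest ratio of all members. It lies on chromosome 9 from 120400489 to 120403866 (GRCm39, plus strand) and encodes the protein eL14. It had 1827 CPM (1821 to 1834) in control cells and 1054 CPM (1049 to 1060) in mutant cells. The log2 ratio was -0.79 (-0.80 to -0.78). Its mutant level was thus 0.577 of the control level. Rpl13a had 249 and 153 CPM, a log2 ratio of -0.71 (-0.73 to -0.68), and had the lowest measured level of the structural members in both libraries. Rpl13a shares near-identical coding sequence with transcripts of 2 other genes, and reads that fit several genes may be dropped. Its protein uL13 can also be released from the ribosome in interferon-treated macrophages and silence inflammatory mRNAs.

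The ribosomal stalk, which recruits the GTPases of translation, is built on Rplp0, Rplp1, Rplp2 and Rpl12. All 4 were lower past the threshold, but to unequal extents. Rplp0 and Rpl12 sit at the stalk base and are in the lowest 5 of all members. Rplp0 had 3287 CPM in control and 2054 CPM in mutant cells (log2 ratio -0.68), and Rpl12 had 2855 and 1729 CPM (-0.72). Rplp1 and Rplp2, the acidic proteins that form its tip, had 5775 and 4492 CPM (-0.36) and 3482 and 2760 CPM (-0.34).

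Rpl5 and Rpl11 bind the 5S ribosomal RNA, and outside the ribosome they can inhibit the p53 ligase Mdm2. They had nearly the same ratio. Rpl5 went from 1150 to 863 CPM (-0.41, from -0.42 to -0.40) and Rpl11 from 2731 to 2065 CPM (-0.40, from -0.41 to -0.40).

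In the small subunit, Rps2, which encodes uS5 near the entrance of the mRNA channel, was the lowest. Control cells had 4483 CPM (4473 to 4493) and mutant cells 2624 CPM (2615 to 2632), a log2 ratio of -0.77 (-0.78 to -0.77). At the other end, Rps29, which encodes the short zinc-binding protein uS14, had 3808 CPM (3798 to 3817) and 3893 CPM (3882 to 3903). Its log2 ratio of 0.032 (0.026 to 0.037) is the only one above 0 among the 77 structural members, and it turned negative under TMM, under median-of-ratios and in totals without mitochondrial and ribosomal protein genes. Rps27, another zinc-binding protein, had 1483 and 1447 CPM (-0.035, from -0.044 to -0.027). Rpl39, which lines the exit tunnel of the large subunit, had 2541 and 2512 CPM (-0.017, from -0.023 to -0.0099). The mutant level of these 3 genes was thus 0.976 to 1.02 of the control level, although they are as abundant as members that were lower past the threshold.

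The most abundant members in the control library were Rpl41 with 6197 CPM, Rps27a with 5889, Rplp1 with 5775 and Rpl13 with 5522. In the mutant library they had 5058, 4463, 4492 and 3625 CPM. The log2 ratio was -0.29 for Rpl41, whose product is the shortest ribosomal protein, and -0.40 for Rps27a, which is made as a fusion with ubiquitin. It was -0.61 for Rpl13. Of the 10 most abundant members of each library, 9 were the same, and these UMIs are not scaled by transcript length because only the 3′ end is read.

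As parts of the module, most members kept their weight. When each was expressed as a share of all ribosomal protein UMIs, 71 of 77 structural members differed by less than the threshold between the libraries. The 6 outside were Rpl14 (-0.39 on the log2 scale), Rps2 (-0.37) and Rpl12 (-0.32) below, and Rps29 (0.43), Rpl39 (0.38) and Rps27 (0.36) above. This is another view of the same counts, since a share of the module is the ratio above less the shift of the whole module.

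The members also varied together over single cells. The Spearman rho of a structural member's share with the summed share of the other members had a median of 0.74 over control cells, with the lowest for Rpl10 (0.48), and 0.71 over mutant cells, with the lowest for Rpl13a (0.40). For 80 other nuclear genes of at least 1000 CPM the median rho with the ribosomal protein share was -0.13 in control and 0.085 in mutant cells. All of these shares use the cell's total as denominator, and counts of abundant genes are less noisy.

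The ratio was related to the length of the coding sequence, a property the choice of members did not use. Across the 77 structural members, Spearman's rho between the log2 ratio and coding length (from CCDS models in GENCODE M39) was -0.54. Across 2812 other genes past the filter with no longer a coding sequence it was 0.093, and across the 322 of these with at least 300 CPM it was 0.090. In 4 groups of increasing length, of 75 to 369, 375 to 456, 468 to 612 and 624 to 1257 bases, the median log2 ratio was -0.31, -0.46, -0.45 and -0.56. The 8 structural members above -0.2 all had coding sequences of at most 390 bases, and 25 of the 77 are that short. Rpl41, with 75 bases the shortest, was not among them. Genes are not independent replicates, so these values describe the 2 libraries, and the ratio had almost no relation to the control level (rho -0.061).

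**Figure D2:**
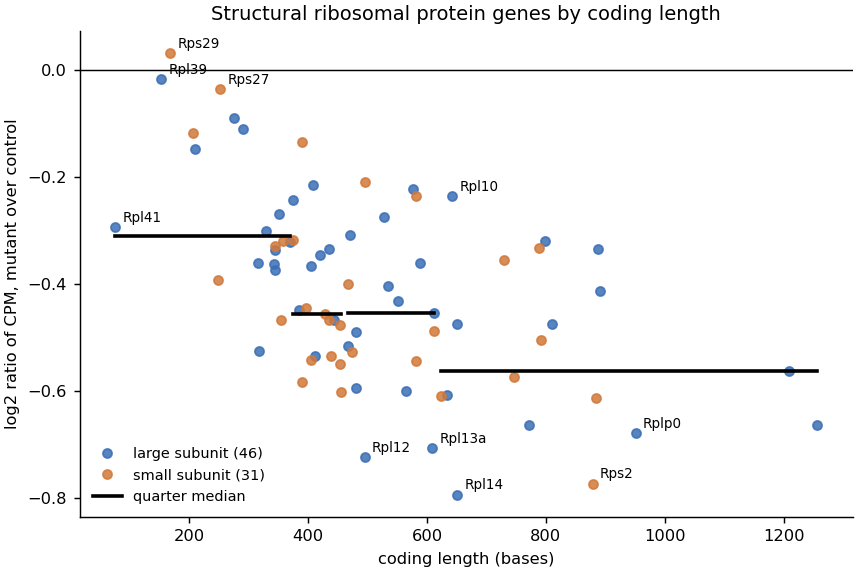
Log2 ratio of CPM, mutant over control library, against coding length in bases for the 77 structural ribosomal protein genes, 1 point per gene. Black bars are the medians of 4 groups of increasing length (-0.31, -0.46, -0.45 and -0.56), and the genes near 0, such as Rps29 and Rpl39, are at the left.

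The same sign of this relation was found within each cell state described next (rho -0.54, -0.52, -0.53 and -0.59) and within each range of depth (-0.48 to -0.56). It was opposite in sign for the ratio of OC-gate over other non-cycling cells described below (0.40 in control and 0.22 in mutant cells) and for that of cycling over non-cycling cells (0.41 and 0.40), where longer members had the higher ratios. For OC-gate over other cells among cycling cells, rho was 0.26 in control and 0.00078 in mutant cells. Near-identical copies were sought for the coding sequence alone, among annotated transcripts. Of the 83 genes past the filter, 73 had a transcript of another gene at 97% identity or more over at least 90 bases. The median log2 ratio of these 73 was -0.40, and that of the 10 without such a copy was -0.42. Rpl41, with 75 coding bases, could not reach 90 aligned bases and fell among the 10. Only the 3′ end is read, so these groups cannot show which reads align to several genes. Levels of members with copies are uncertain, since reads that fit several genes may be dropped.

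Of the 10 members that are not structural, 6 passed the filter. Rps27rt, an intronless relative of Rps27, was the highest of all members, with 63.3 CPM (62.1 to 64.5) in control cells and 71.0 CPM (69.5 to 72.4) in mutant cells. Its log2 ratio was 0.17 (0.13 to 0.21), and its reads may be shared with Rps27. Rpl22l1, a paralog that can replace Rpl22, had 545 and 494 CPM (-0.14, from -0.16 to -0.13). It made up 24.3% of the UMIs of the pair in control and 28.4% in mutant cells. Rpl36al had 854 and 755 CPM (-0.18), or 40.6 and 46.5% of the UMIs of Rpl36a and Rpl36al together. Rps27l, which p53 activates, went the other way within its pair: it had 1195 and 878 CPM (-0.45), or 44.6 and 37.8% of the UMIs of Rps27 and Rps27l. Rpl7l1, a factor of large-subunit assembly, had 109 and 105 CPM (-0.060), and Rps19bp1, which binds Rps19 and the deacetylase Sirt1, had 106 and 84.9 CPM (-0.32). The structural partners Rpl22 and Rpl36a were named after their values were seen.

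The 4 members under the filter were close to the limit of detection. Rpl3l, known from striated muscle, had 168 and 100 UMIs, and Rpl39l, known from testis, had 142 and 190 UMIs. Rps23rg1 had 1 UMI in each library. Rpl10l had 0 UMIs in both, which allows up to 0.0183 CPM in control and 0.0228 CPM in mutant cells (3 UMIs).

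Ribosomal proteins whose symbols fall outside the pattern were compared as well. Fau, which encodes eS30 fused to a ubiquitin-like protein, had 4453 and 4214 CPM (-0.080), and Rack1, a signaling scaffold on the small subunit, had 1501 and 1054 CPM (-0.51).

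Cell states were then compared, because the study asked how proliferation gives way to differentiation. Each cell was thinned to 5000 UMIs, and 3 or more UMIs summed over the osteoclast genes Ctsk, Mmp9, Acp5 and Dcstamp put it in the OC gate. The same number over the mitotic genes Mki67, Top2a, Aurka and Cdk1 put it in the cycling gate. Cells outside that gate are called non-cycling here, although they may hold fewer UMIs of these genes. Levels use all UMIs of the cells. The 168 control and 351 mutant cells under 5000 UMIs could not be placed, and their share was 20.1% and 14.0%.

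In cells of neither gate, ribosomal protein genes held 21.4% of UMIs in 3350 control cells and 16.8% in 3383 mutant cells. In cells of the cycling gate alone they held 21.6% (2179 cells) and 16.4% (1743 cells). The OC gate alone gave 26.5% (326 cells) and 18.1% (126 cells), and both gates together 25.3% (246 cells) and 18.5% (60 cells). The mutant share was lower in all 4 states, and the difference of mutant minus control was -4.68 points in neither gate, -5.19 in the cycling gate alone, -8.40 in the OC gate alone and -6.81 in both gates. The gates were made up differently in the libraries. Without Acp5 as a gate gene, the OC gate alone held 211 in place of 326 control cells and 33 in place of 126 mutant cells. The median log2 ratio in it, given next, was then -0.46 in place of -0.55. Mki67 of the cycling gate had a log2 ratio of mutant over control of -0.77. Without Mki67, the cycling gate alone held 1581 in place of 2179 control cells and 1465 in place of 1743 mutant cells. The group with the fewest UMIs, mutant cells of both gates, had a counting interval of 18.47 to 18.59%.

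**Figure D3:**
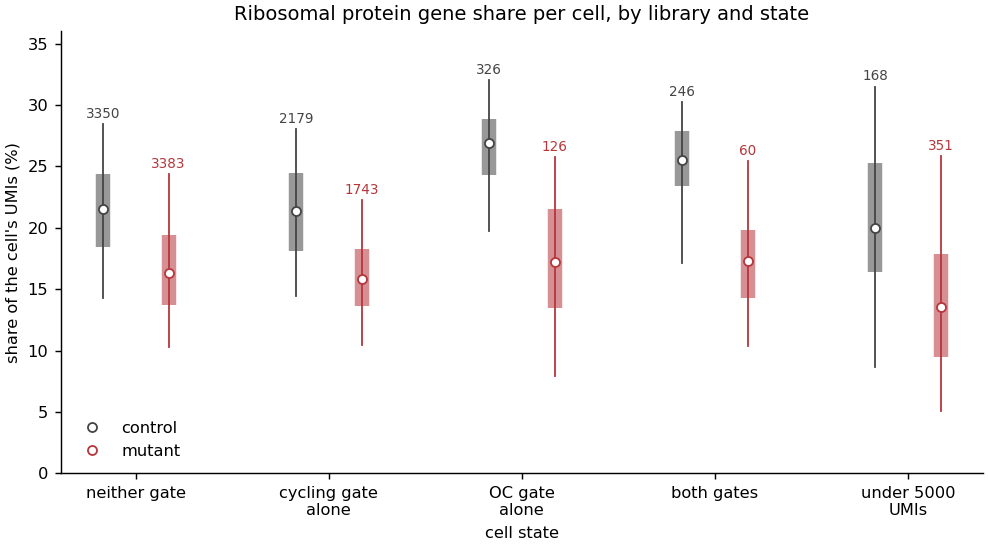
Share of a cell's UMIs on ribosomal protein genes, in percent, by cell state and library. Circles are medians over cells, thick bars run from the 25th to the 75th percentile, thin lines from the 5th to the 95th, and numbers count cells. The control median is the higher in each state, and that of the OC gate alone is 26.9% in control and 17.2% in mutant cells, against 21.5 and 16.3% in neither gate.

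Gene by gene, the median log2 ratio of mutant over control was -0.36 in neither gate, -0.40 in the cycling gate alone, -0.55 in the OC gate alone and -0.46 in both gates. Past the threshold, 46 of 83 members were lower in neither gate, where 15.4% of all genes were. In the cycling gate alone 55 were lower, against 16.7% of all genes. In the OC gate alone 72 were lower, against 28.5%, and in both gates 63 were lower, against 22.6%. No member was higher past it in any of the 4 states, 45 were lower past it in all 4 and 11 stayed within it in all 4.

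Rpl14 again had the lowest ratio in each state. It had 1731 and 1047 CPM in neither gate (control and mutant), 1803 and 1052 in the cycling gate alone, 2420 and 1207 in the OC gate alone, and 2321 and 1289 in both gates. The log2 ratios were -0.73, -0.78, -1.0 (-1.06 to -0.95) and -0.85. In both libraries the levels were higher in the OC gate alone and in both gates than in the other states, by less in the mutant library.

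Rps29 showed no such gap. It had 3809 and 3945 CPM in neither gate, 3714 and 3794 in the cycling gate alone, 4256 and 3927 in the OC gate alone, and 3999 and 4193 in both gates. Its log2 ratio was above 0 in 3 states and -0.12 (-0.15 to -0.086) in the OC gate alone. Rps27rt was at 0.20 in neither gate and 0.21 in the cycling gate alone, and its intervals in the OC gate alone (-0.19 to 0.23) and in both gates (-0.26 to 0.28) included 0.

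The contrast of OC-gate cells with other non-cycling cells was made within each library. In the control library every one of the 83 members was higher in OC-gate cells, with a median log2 ratio of 0.32, and 40 were higher past the threshold, where 24.2% of all genes were. In the mutant library 76 of 83 were higher, with a median of 0.12, and 1 was past the threshold (Rpl13a), where 11.4% of all genes were. The share of UMIs in the OC gate alone minus that in neither gate was 5.11 points in control cells and 1.39 points in mutant cells. The control ratio was the larger for all 83 members. With 1 library per group this difference was not tested. The median control depth was 25036.5 UMIs in OC-gate and 22122.5 in other cells, and the median mutant depth was 21047.5 and 21147. The share of UMIs on interferon-stimulated genes was 0.358% in OC-gate and 0.501% in other control cells, but 1.21 and 1.11% in mutant cells, and the part of depth or of these genes in the contrast was not tested. Among cycling cells, the median log2 ratio of both gates over the cycling gate alone was 0.24 in control and 0.16 in mutant cells. Past the threshold 7 and 2 members were higher, where 16.1% and 14.1% of all genes were. The share of UMIs was higher there by 3.75 and 2.13 points.

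Counts past the threshold in the contrast among non-cycling cells moved with the gate in both libraries. The share of all genes past it was taken only with the gate and totals as first set, so the counts that follow have no background beside them. With 5 UMIs needed, 25 control and 17 mutant members were higher past it, with thinning to 2000 UMIs 21 and 8, and without Acp5 34 and 7, in place of 40 and 1. The medians were then 0.29 and 0.24, 0.27 and 0.20, and 0.31 and 0.20. With other random seeds of the thinning, 28, 29 and 28 control and 2, 1 and 1 mutant members were higher, and on gate genes without thinning, or with 1 UMI needed, 1 control and 0 mutant members were. Leaving mitochondrial and ribosomal protein gene UMIs out of the totals gave 71 and 1. The median in the control library lay between 0.14 and 0.43 over 20 alternatives, above 0 in all. In the mutant library it lay between -0.076 and 0.24 and was above 0 in 16. The control median was the higher under each of the 20, by 0.050 to 0.34.

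**Figure D4:**
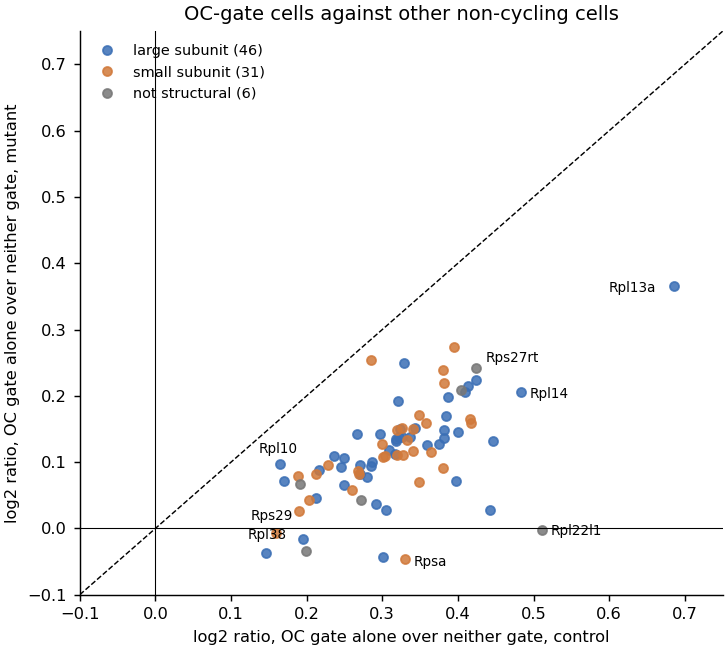
Log2 ratio of OC-gate over other non-cycling cells in the mutant library (vertical) against the same ratio in the control library (horizontal), 1 point for each of 83 ribosomal protein genes, with the line of equal ratios dashed. All points lie below the line, Rpl13a is the farthest out (0.69 and 0.37), and Rpl22l1 is at 0.51 and near 0.

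Rpl13a had the largest ratio in control OC-gate cells, 0.69 (0.63 to 0.74), going from 226 to 363 CPM. In the mutant library it went from 150 to 194 CPM (0.37, from 0.24 to 0.49). Rpl22l1 came next, with 511 and 728 CPM in control cells (0.51, from 0.47 to 0.55), but with 495 and 494 CPM in mutant cells (-0.0020, from -0.078 to 0.073). Rpl14 followed with 0.48 (0.46 to 0.50) in the control and 0.21 (0.16 to 0.25) in the mutant library. The lowest in control OC-gate cells were Rpl38 with 0.15, Rps29 with 0.16 and Rpl10 with 0.16. Rpl38, a large-subunit protein known for its part in the translation of Hox mRNAs, had 2176 and 2408 CPM in control cells but 1973 and 1923 CPM in mutant cells (-0.037, from -0.076 to 0.00079). Rpl10, which is among the last proteins to join the large subunit, had a mutant ratio of 0.098.

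Rpsa, whose product is both a small-subunit protein and a laminin receptor, was the only member with opposite signs in the contrast among non-cycling cells and both counting intervals clear of 0. It went from 3339 to 4198 CPM in control cells (0.33) and from 2260 to 2190 CPM in mutant cells (-0.046), and it was named after these values were seen. Counting intervals leave out the spread between cells, and the mutant OC gate alone held 126 cells.

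Cells of the cycling gate differed little from cells outside it, as gated here. Both groups depend on the gate. With 1 UMI needed, the cycling gate alone held 2961 in place of 2179 control cells and 2536 in place of 1743 mutant cells. Neither gate then held 1331 in place of 3350 control cells and 1469 in place of 3383 mutant cells. Outside the OC gate, the median log2 ratio of cycling over non-cycling cells was 0.010 in control and -0.023 in mutant cells. No member passed the threshold in either direction in either library, where 12.7% (control) and 12.2% (mutant) of all genes were higher past it. The largest control ratios were those of Rps19bp1 (0.20), Rpl13a (0.14, from 0.11 to 0.17) and Rpl22l1 (0.10), and the lowest those of Rps27rt (-0.11), Rps26 (-0.065) and Rpl38 (-0.065). Rps26, which lies at the exit of the mRNA channel, was at -0.0093 (-0.022 to 0.0029) in the mutant library. In cells of 5000 to 10000 UMIs the medians were -0.22 and -0.24, with 8 control and 19 mutant members lower past the threshold. The share of all genes lower past it in those cells was not taken. In cells of 30000 to 60000 UMIs the medians were 0.043 and 0.0052.

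Other genes of the translation pathway were set beside the members. Of 39 ribosome biogenesis genes past the filter, which process ribosomal RNA and assemble subunits, 38 were lower in the mutant library and 32 of them past the threshold, with a median log2 ratio of -0.55. Dkc1, the pseudouridine synthase of snoRNPs, was lowest at -1.12 (105 and 48.2 CPM), and Sbds was highest at 0.16 (42.1 and 47.0 CPM). Of 21 translation factors and related genes whose mRNAs also start with pyrimidines, 20 were lower and 13 past the threshold, with a median of -0.47. Npm1, a nucleolar chaperone, was lowest at -0.96 (1652 and 848 CPM), and Eif4a2, a helicase of initiation, highest at 0.27 (48.1 and 58.0 CPM).

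Host genes of small nucleolar RNAs, which are spliced but not translated into known proteins, had a median of -0.40 over 7 genes. They ranged from -0.99 for Snhg3 (78.0 and 39.1 CPM) to 0.36 for Zfas1 (63.2 and 81.1 CPM), with 4 lower and 1 higher past the threshold. RNA polymerase I subunits and factors, which transcribe ribosomal RNA, had a median of -0.29 over 6 genes, from Polr1d at -0.56 (373 and 253 CPM) to Polr1h at 0.33 (40.9 and 51.5 CPM). Mitochondrial ribosomal protein genes are encoded in the nucleus for a different ribosome. Of their 75 genes past the filter, 62 were lower, 30 of them past the threshold, and 1 was higher past it, with a median of -0.27.

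**Figure D5:**
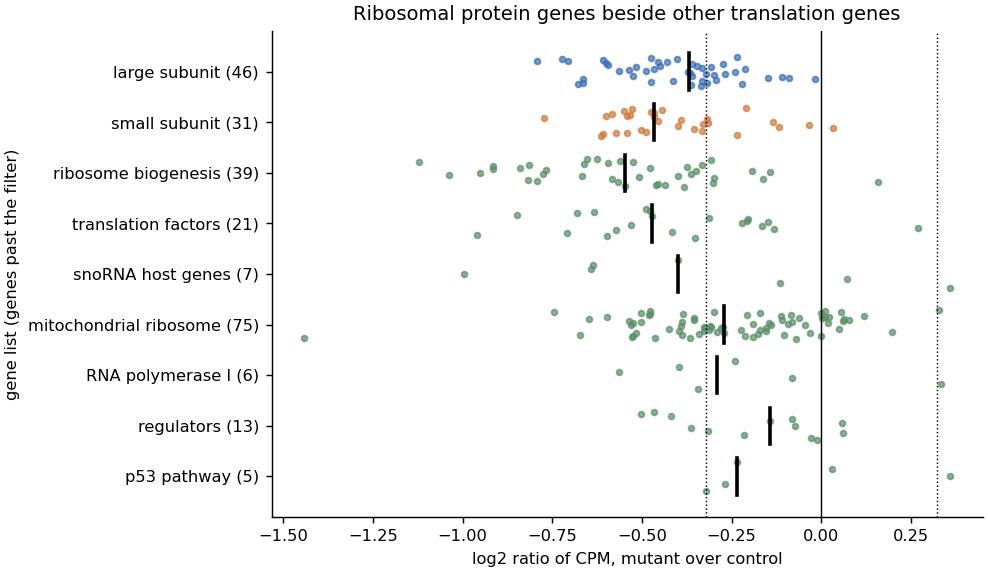
Log2 ratio of CPM, mutant over control library (horizontal), for genes past 20 CPM in each list, 1 point per gene, with black bars at the medians and dotted lines at the threshold of 0.32. The medians of the large (-0.37) and small subunit (-0.47) lie between those of ribosome biogenesis (-0.55) and mitochondrial ribosomal protein genes (-0.27).

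Of 13 regulators past the filter, 11 were lower and 4 of them past the threshold, with a median of -0.14. Those 4 were Cnbp (-0.50), an RNA-binding protein of pyrimidine-led mRNAs, Akt1s1 (-0.47) and Mtor (-0.36) of the mTOR complex, and Eif4ebp1 (-0.42), a repressor of initiation that mTOR inactivates. Myc, which drives ribosome synthesis, had 46.0 and 36.9 CPM (-0.32, from -0.37 to -0.26), just inside the threshold. Rps6kb1, the S6 kinase, was at -0.22 and Larp1 at -0.14 (84.5 and 76.5 CPM). Eif4ebp2 (-0.081), Max (-0.074), Rptor (-0.030), Tial1 (-0.011), Maf1 (0.058) and Rheb (0.061) lay near 0, and Rptor, Tial1, Maf1 and Rheb changed sign under another scaling, weighting or choice of barcodes.

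In the p53 pathway, Trp53 (-0.32, just inside the threshold), Mdm2 (-0.27) and Bax (-0.23) were lower, none of them past it. Ccng1 was at 0.030 (-0.019 to 0.079), negative under 3 other scalings. Cdkn1a, the inhibitor of cyclin-dependent kinases that p53 induces, was higher with 181 and 232 CPM (0.36, from 0.34 to 0.38).

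Other measures moved with the library as well, and their part in the lower share was not tested. The macrophage and osteoclast markers above are among them. All 25 interferon-stimulated genes of the list were higher in the mutant library, with a median log2 ratio of 2.02. Each library was also split at its own median, so that its parts are not matched with those of the other library. Control cells above the median interferon-stimulated gene share had 20.9% and those below it 23.0% of UMIs on ribosomal protein genes. The mutant values were 16.1% and 17.2%. Splits at the median of UMIs per cell, of the mitochondrial share, of the Malat1 and Neat1 share and of the ribosome biogenesis share were made in the same way. The widest was by the biogenesis share, with 24.3 and 19.4% in control cells and 18.3 and 14.9% in mutant cells.

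Markers of other cell types also differed. All 7 neutrophil markers were counted in both libraries, with a summed level of 270 CPM in control and 2027 CPM in mutant cells. Cells with at least 0.5% of UMIs on them numbered 21 and 92, and their median ribosomal protein share was 11.5% and 10.2%. MHC class II genes (4 of 4 counted) had 28.7 and 116 CPM, stromal markers (6 of 6) 6.14 and 11.7 CPM, lymphoid markers 0.489 and 2.21 CPM with 1 of 6 at 0 in each, and erythroid markers 0.0428 and 0.0152 CPM with 2 and 3 of 4 at 0. Without all cells past a cut on any of these lists, the difference of shares was -5.31 points and 55 members were lower past the threshold. Of all 5210 genes past the filter, 905 were lower past it in that setting.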

How the data were processed

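Cells were BMDMs of 1 control and 1 LysM-Cre;Arid1afl/fl library, grouped by the genotype label. The authors deposited UMI counts without normalization, written by Cell Ranger 6.1.0 according to the file headers, and GRCm39 is the genome in the submitters' processing notes. Whether counting used the strand, or followed the aggregation step that can subsample reads, was not given in the sources used here. UMIs of 163618835 control and 131469887 mutant counts were summed per library or state and scaled to CPM in Python 3.11.15. Intervals are exact Poisson, binomial (Clopper-Pearson) or conditional ones at 95%, they cover counting error only, and with 1 library per group there is no test. No doublet caller was run. Leaving out the barcodes of the highest UMI totals, at 0.8% per 1000 barcodes, stood in for one. TMM factors came from edgeR 4.0.16 on the summed counts. The ratio and its interval were run on simulated Poisson counts with known folds. Those counts hold no spread between cells or libraries, so the run checks the arithmetic alone. Identifiers matched GENCODE M39 for 31977 of 32544 genes, and starts are those of RefSeq GRCm38.p6 (67 of 87 members).

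Genes named are, among members of at least 20 CPM, the 5 highest and 5 lowest ratios, the 5 most abundant, the 3 highest and 3 lowest in the control cycling and OC contrasts, all members that are not structural, the stalk and 5S proteins, and Fau and Rack1. Of the other lists they are the extremes, or all genes for regulators and the p53 pathway. Some items the rule selects are not reported here. Members and lists were chosen with earlier results of these data known.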

Additional observations from a re-analysis of the deposited data

Results flagged for a closer look

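The cycling contrast had opposite signs in the libraries as gated here, but the same sign in both under 8 of 21 alternatives. The median log2 ratio of cycling over non-cycling cells was 0.010 over the 83 ribosomal protein genes in control cells and -0.023 in mutant cells. With 1 library per group the difference was not tested, and the cause was not tested. Of the members, 19 had opposite signs with both counting intervals clear of 0, and the largest of these ratios was 0.093 in size. They include the stalk proteins Rplp1 (0.021 in control and -0.063 in mutant cells) and Rplp2 (0.023 and -0.023), and Rps2 (0.045 and -0.011). The counting intervals leave out the spread between cells.

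In the contrast of OC-gate over other non-cycling cells, Rpsa was at 0.33 (0.31 to 0.35) in the control and -0.046 (-0.082 to -0.010) in the mutant library. No other member had opposite signs with both intervals clear of 0. Such intervals leave out the spread between cells, and the mutant value rests on 126 OC-gate cells. The difference between the libraries was not tested, and Rpsa was singled out after its values were seen.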

How the results depend on the processing

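The lower share and the lower ratios of ribosomal protein genes in the mutant library kept their direction under all alternatives run. The difference of shares was -5.53 points in totals without mitochondrial UMIs and -5.40 with every cell weighted alike. It was -5.27 without the highest-UMI barcodes and -5.26 for structural proteins alone, and -4.34, -5.15, -5.47 and -5.02 from the shallowest to the deepest range of UMIs. Relative to totals without mitochondrial and ribosomal protein gene UMIs the difference was -8.57. Those totals leave out the ribosomal protein gene UMIs themselves, so this value is not a share and is on another scale. Between 49 and 70 members were lower past the threshold. The 49 came from cells of 30000 to 60000 UMIs, where 914 of 5195 genes were lower past it. The 70 came from totals without mitochondrial and ribosomal protein gene UMIs, where 1507 of 5953 genes were. The median log2 ratio was -0.51 without mitochondrial and ribosomal protein gene UMIs in the totals and -0.49 with median-of-ratios scaling. With the former totals it was -0.45 in neither gate, -0.51 in the cycling gate alone, -0.73 in the OC gate alone and -0.60 in both gates. In the OC gate alone it was -0.46 and -0.59 with thinning to 2000 and 10000 UMIs, -0.43 with 5 UMIs needed, -0.46 without Acp5 as a gate gene, -0.63 with cells weighted alike and -0.67 in cells of 10000 to 20000 UMIs. In both gates it was -0.36 without Acp5 and -0.41 in cells of 30000 to 60000 UMIs.

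The ratio of OC-gate over other cells moved more. In the control library the median was 0.27 and 0.26 with thinning to 2000 and 10000 UMIs, 0.16 and 0.29 with 1 and 5 UMIs needed, 0.14 without thinning, 0.30 without Mmp9, 0.43 without mitochondrial and ribosomal protein gene UMIs, 0.26 and 0.36 in cells of 10000 to 20000 and 20000 to 30000 UMIs, and 0.30, 0.30 and 0.29 with other seeds. In the mutant library it was 0.20 and -0.017 with thinning to 2000 and 10000 UMIs, -0.039 and 0.24 with 1 and 5 UMIs needed, -0.046 without thinning, 0.097 without Mmp9, 0.20 without Acp5, 0.050 with cells weighted alike, 0.14 without mitochondrial and ribosomal protein gene UMIs, 0.097 without the highest-UMI barcodes, and -0.076 and 0.20 in cells of 10000 to 20000 and 20000 to 30000 UMIs.

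The cycling ratio had no stable sign. Its control median was -0.024 with thinning to 2000 UMIs, 0.027 and -0.0018 with 1 and 5 UMIs needed, 0.024 without Mki67, -0.013 with cells weighted alike, and -0.22, -0.088, -0.0046 and 0.043 from the shallowest to the deepest range. The mutant median was -0.059 with thinning to 2000 UMIs, -0.046 with 5 UMIs needed, 8.2e-05 without thinning, -0.059 with cells weighted alike, and -0.24, -0.13 and 0.0052 in cells of 5000 to 10000, 10000 to 20000 and 30000 to 60000 UMIs. The cause of these moves was not tested. For named genes, 248 of 456 alternative values stayed within counting error and 208 moved beyond it.

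Groups under 20 cells were not run: both gates with thinning to 2000 UMIs, with 5 UMIs needed and in the 3 ranges below 30000 UMIs, and the OC gate alone in cells of 5000 to 10000 UMIs. Other seeds, and leaving out cells with other cell type markers, were chosen after seeing the data. No paired analysis was possible because each group is 1 library. Depth sets the precision of the ratios within a library, but the lack of a second library per genotype limits every comparison between genotypes.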
